A study of Mus musculus with 6 samples.

Results

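The visceral mesenchyme regulators examined here were 6 transcription factor genes, Wt1, Tcf21, Gata6, Gata4, Osr1 and Bnc1. They were taken by symbol from the deposited count table because these factors are known from the mesenchyme and lining of internal organs, and all 6 were found among the 20295 genes of the table. RNA was sequenced from primary adipocytes, grown and differentiated in vitro from the stromal-vascular fraction (the non-adipocyte cells) of 3 fat depots of male NMRI mice aged 4 to 5 weeks. The groups were epididymal white fat (eWAT, a visceral depot beside the testis), inguinal white fat (iWAT, subcutaneous) and brown fat (BAT), with 2 libraries each. The BAT cultures combined cells of the cervical, axillary and interscapular pads. All 3 groups were exposed to 1 µM rosiglitazone, an activator of the adipogenic receptor Pparg, to 30 nM insulin and to newborn calf serum at 10%. Per the labels, cells were harvested on day 8, while a tag in the sample descriptions reads day 7, and more than 50% of the cells in a used culture had differentiated. Whether replicates stand for separate animals or cultures is not given in the labels, so p-values measure only the spread between these libraries.

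The coelomic epithelium and the mesothelium that derives from it cover the internal organs, and during development some of these cells leave the sheet and become mesenchyme. Wt1 and Gata4 act in that sheet and in the gonad, Tcf21, Osr1 and Gata6 in mesenchyme of the kidney, lung, heart and body cavity, and lineage tracing in mice has placed Wt1-expressing cells among the ancestors of visceral but not subcutaneous white adipocytes. Gata6 is also the defining factor of the large macrophages of the peritoneal cavity in mice.

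Library depth ran from 2889038 to 4807449 counts, at which the floor of 3 counts, the limit set for a library with no read of a gene, equalled 0.634 to 1.15 CPM (counts scaled to a common library size). The labelled cell type was seen in every library. Adipoq, which encodes the adipocyte hormone adiponectin, averaged 1898 ± 704 CPM in eWAT, 1515 ± 123 CPM in iWAT and 1817 ± 500.4 CPM in BAT (SD, n = 2 each). Of 12 adipocyte markers, edgeR called 0 in any contrast at an adjusted p of 0.05. At an unadjusted p below 0.05 were 0 in eWAT minus iWAT, 3 in eWAT minus BAT and 1 in iWAT minus BAT. Over all genes that share was 9.34% in eWAT minus iWAT and 16.6% in iWAT minus BAT, and it was not counted for eWAT minus BAT. In eWAT minus BAT, Slc2a4 (-1.24), Pparg (-1.10) and Fabp4 (-0.82) were lower in eWAT. The other markers ran from 0.04 for Dgat2 to 0.40 for Cidec, and the list median was 0.11, against 0.03 over all genes.

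Promoter sequences in RefSeq (GRCm38.p6) were available for Tcf21 and Bnc1, and the 250 bases before each start are shown because they differ in composition and in the motifs of the other members that they hold. Capitals mark matches, on either strand, to AGATAA (bound by GATA factors) and GCGNGGGNG (bound by Wt1 and by the related Egr factors), with any base at N; the E-box CAGCTG, a sequence bound by Tcf21, had no match in either window.
Tcf21 promoter: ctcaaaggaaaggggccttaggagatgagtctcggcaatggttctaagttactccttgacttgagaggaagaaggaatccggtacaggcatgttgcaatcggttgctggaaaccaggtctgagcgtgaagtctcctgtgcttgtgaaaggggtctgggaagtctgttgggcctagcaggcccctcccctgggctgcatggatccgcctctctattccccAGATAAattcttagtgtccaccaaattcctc
Bnc1 promoter: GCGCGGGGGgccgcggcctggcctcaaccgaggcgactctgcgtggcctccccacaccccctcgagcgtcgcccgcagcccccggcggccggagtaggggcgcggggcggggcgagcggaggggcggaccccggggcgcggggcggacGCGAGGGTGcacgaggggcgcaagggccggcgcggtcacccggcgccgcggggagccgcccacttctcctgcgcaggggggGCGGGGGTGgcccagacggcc
The Tcf21 window (chr10:22820144-22820393, minus strand) held 5 CpG dinucleotides, against a median of 6 over 32851 promoter windows of that length, and had 1 AGATAA, 31 to 26 bases before the start. The Bnc1 window (chr7:81992300-81992549, minus strand) held 39 CpG dinucleotides, a number reached by 1.56% of windows, and had 3 matches to GCGNGGGNG, the nearest 21 to 13 bases before the start. AGATAA occurred in 9.99% of all windows, CAGCTG in 13.0% and GCGNGGGNG in 10.5%. The base composition was 83.6% G and C for Bnc1 and 52.4% for Tcf21, the median over all windows being 52.4%. These matches describe the letters only, and binding was not measured in these cultures.

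All 6 genes had their highest mean level in the eWAT cultures, and for 5 of the 6, all but Gata4, both eWAT libraries had a higher CPM than the other 4, with libraries without a read taken as 0. For Bnc1 this order was not settled at this depth. Among the 17699 genes with a count in any library, 11% had both eWAT libraries above the other 4 by the same measure. The members were of unequal abundance, and their library values followed different depot orders. Those of Wt1 and Gata6 stepped down over eWAT, iWAT and BAT, while Tcf21 and Osr1 were high in eWAT with iWAT and BAT both low. edgeR called 0 members in eWAT minus iWAT and 0 in iWAT minus BAT, so these orders describe the libraries only. The share of all genes with these depot orders, or with their highest mean in eWAT, was not counted. In bulk cultures a smaller number of expressing cells and less RNA per cell cannot be told apart, which holds for every level below.

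**Figure D1:**
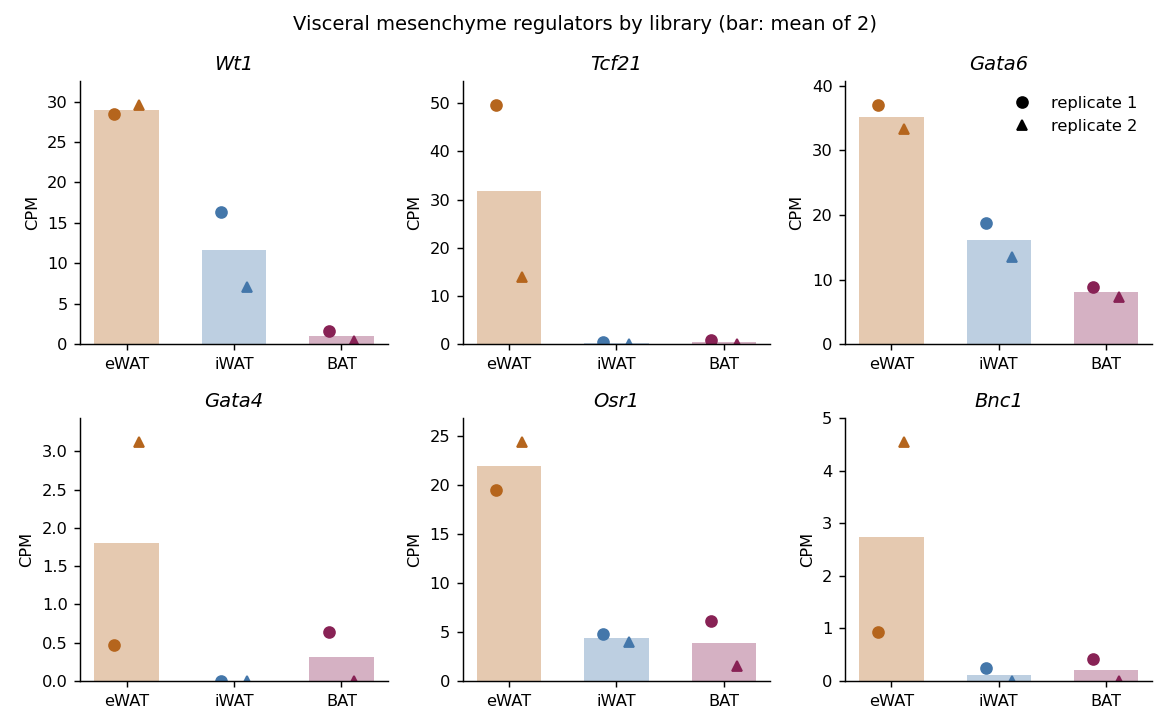
Level of each regulator in CPM by depot, with 1 panel per gene and its own scale; bars are the mean of 2 libraries, circles replicate 1 and triangles replicate 2. The eWAT points stand above those of iWAT and BAT in the panels of Wt1, Tcf21, Gata6, Osr1 and (libraries without a read drawn at 0) Bnc1, and the eWAT points of Tcf21, Gata4 and Bnc1 lie far apart.

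Wt1 encodes a zinc finger factor of the mesothelium, kidney podocytes and gonad (mm9 chr2:104966686-105013771, plus strand; 3092 bases counted). Its reads numbered 122 and 104 in the eWAT libraries, 68 and 28 in the iWAT libraries and 8 and 1 in the BAT libraries. On the CPM scale these were 28.4 and 29.6 in eWAT, 16.4 and 7.04 in iWAT, and 1.69 and 0.382 in BAT. The 3 depots did not overlap, the eWAT libraries were close to each other, and the BAT libraries held few reads. Wt1 was higher in eWAT than in BAT by 4.58 ± 0.63 on the log2 scale (SE; edgeR quasi-likelihood test, adjusted p = 0.023). The difference of 3.28 ± 0.64 between iWAT and BAT missed the threshold by the edgeR test (adjusted p = 0.0911), and DESeq2 called it (adjusted p = 0.000812). Between eWAT and iWAT the difference was 1.30 ± 0.48 (edgeR, adjusted p = 0.447; unadjusted p = 0.0332), a contrast in which no gene passed the adjusted threshold.

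Gata6 and Gata4 encode zinc finger factors that bind the GATA motif and act together in the heart, gut and body cavity. Gata6 (mm9 chr18:11052508-11085633, plus strand; 3136 bases) had 37.0 and 33.3 CPM in eWAT, 18.8 and 13.6 CPM in iWAT and 8.88 and 7.26 CPM in BAT. Replicates lay close together in each depot and no depot overlapped another. The difference between eWAT and BAT was 2.11 ± 0.28 (log2, SE; edgeR quasi-likelihood test, adjusted p = 0.0213). Of the intermediate steps, eWAT minus iWAT was 1.12 ± 0.26 (edgeR, adjusted p = 0.190) and iWAT minus BAT was 0.99 ± 0.28 (edgeR, adjusted p = 0.172), neither past the threshold.

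Gata4 (mm9 chr14:63817752-63864097, minus strand; 3393 bases) was barely detected. It had 2 and 11 reads in eWAT, 0 and 0 in iWAT, and 3 and 0 in BAT, and so did not pass the filter on low counts. The replicate 1 eWAT library, at 0.466 CPM, lay below the replicate 1 BAT library, at 0.634 CPM, so eWAT and BAT overlapped. Pooled over libraries, Gata4 was at least 4.51-fold higher in eWAT than in iWAT, with 3 counts taken over both iWAT libraries, and 4.08-fold (95% interval 1.12 to 22.3) that of BAT. These intervals cover counting error only, and 11 of the 13 eWAT reads came from replicate 2. Per kilobase, Gata6 averaged 11.2 ± 0.849 and Gata4 0.530 ± 0.555 CPM per kb in eWAT (SD, n = 2).

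Osr1 encodes an odd-skipped zinc finger factor of the intermediate and lateral plate mesoderm (mm9 chr12:9581248-9588306, plus strand; 2011 bases). Its level was 19.6 and 24.5 CPM in eWAT, 4.81 and 4.02 CPM in iWAT, and 6.13 and 1.53 CPM in BAT. The eWAT libraries stood well above the other 4, while the iWAT values fell between the BAT values. Osr1 was 2.31 ± 0.53 (log2) higher in eWAT than in iWAT and 2.41 ± 0.54 higher in eWAT than in BAT, with edgeR adjusted p = 0.190 and 0.0532, neither below 0.05. iWAT minus BAT was 0.10 ± 0.58 (edgeR, adjusted p = 0.956).

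Tcf21 encodes a basic helix-loop-helix factor of visceral organ mesenchyme (mm9 chr10:22537079-22539934, minus strand; 1229 bases). It had 213 and 49 reads in eWAT, 2 and 0 in iWAT, and 4 and 0 in BAT, equal to 49.6 and 13.9 CPM in eWAT, 0.481 and 0 CPM in iWAT, and 0.845 and 0 CPM in BAT. Both eWAT libraries lay far above the other 4, and the iWAT and BAT libraries held 4 reads at most. By pooled counts, eWAT had 136.5 times the iWAT level (95% counting interval 37.4 to 1133) and 61.6 times the BAT level (23.8 to 227.9). The fitted differences were 6.85 ± 1.15 against iWAT (edgeR, adjusted p = 0.128) and 5.84 ± 1.05 against BAT (edgeR, adjusted p = 0.0361), both depending on the prior count because of the zeros. iWAT and BAT did not differ beyond their spread, at -1.01 ± 1.83 (edgeR, adjusted p = 0.833). Per kilobase, Tcf21 had the highest mean of the 6 in eWAT, 25.9 ± 20.5 CPM per kb, but its replicate 2 library reached only 0.281 times the level of replicate 1 (0.202 to 0.385).

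Bnc1 encodes basonuclin, a zinc finger protein of stratified epithelia, germ cells and mesothelium (mm9 chr7:89111548-89137185, minus strand; 4663 bases). Its reads numbered 4 and 16 in eWAT, 1 and 0 in iWAT, and 2 and 0 in BAT, too few to pass the filter. These were 0.932 and 4.55 CPM in eWAT, 0.241 and 0 CPM in iWAT, and 0.423 and 0 CPM in BAT. The replicate 1 eWAT value lay below the floor of the replicate 2 BAT library, 1.15 CPM, so those libraries could not be put in order. The pooled level in eWAT was 20.8 times that in iWAT (95% counting interval 3.33 to 863.6) and 9.41 times that in BAT (2.29 to 83.0).

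Per kilobase of counted transcript, the eWAT means of Osr1 and Wt1 were 10.9 ± 1.72 and 9.38 ± 0.265 CPM per kb, next to Gata6, and Bnc1 stood at 0.588 ± 0.549 (SD, n = 2). In iWAT, Gata6 led with 5.16 ± 1.17 CPM per kb, followed by Wt1 with 3.78 ± 2.13 and Osr1 with 2.20 ± 0.277. In BAT, Gata6 led with 2.57 ± 0.363, Osr1 followed with 1.90 ± 1.62, and Wt1 stood at 0.335 ± 0.299 CPM per kb. Gata6 and Osr1 were the members with 4 or more reads in every library. No other gene of the count table overlapped a member, but GENCODE M21 places Gm10824, 1010001N08Rik, 1700022H16Rik and the pseudogene 4833418N17Rik on the opposite strand across Tcf21, Gata6, Osr1 and Bnc1. Strandedness is not given in the sources used here, so reads from these could have been counted with the members.

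Tests covered the 4 members that passed the filter. A gene can pass it through the depot where it is high, so the counts below describe these genes and do not stand for all 6. Between eWAT and BAT, Wt1, Tcf21 and Gata6, 3 of 4, were called higher in eWAT, where 3.75% of 11732 genes were called higher; DESeq2 called all 4 (6.57% of genes) and limma voom called Wt1 and Gata6 (2.68%). Against the mean of iWAT and BAT all 4 were called higher in eWAT, where 2.28% of genes were; DESeq2 called the same 4 (4.61% of genes) and limma voom all but Tcf21 (1.76%). These differences were 2.94 ± 0.44 for Wt1 (edgeR, adjusted p = 0.0329), 6.34 ± 0.83 for Tcf21 (adjusted p = 0.0256), 1.61 ± 0.22 for Gata6 (adjusted p = 0.026) and 2.36 ± 0.43 for Osr1 (adjusted p = 0.0489). Between eWAT and iWAT, edgeR called 0 members and 0 of 11732 genes (0%), while all 4 tested members had an unadjusted p below 0.05, as did 9.34% of genes. DESeq2 called Tcf21 (adjusted p = 2.19e-05) and Osr1 (adjusted p = 0.0206) in that comparison, where it called 1.6% of genes higher in eWAT, and limma voom called 0 members (0% of genes higher in eWAT). Between iWAT and BAT, edgeR called 0 members, against 0.895% of genes higher in iWAT, with Wt1 and Gata6 at an unadjusted p below 0.05, as were 16.6% of genes in either direction; DESeq2 called Wt1 (2.82% of genes higher in iWAT) and limma voom called 0 members (0.528%).

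Each depot had 2 libraries, and many of these calls were lost when 1 library was left out. Such a fit leaves 1 library in a depot and less information on the spread. A lost call alone therefore does not show that the library left out had made the difference. Without the replicate 1 or the replicate 2 eWAT library, Wt1 in eWAT minus BAT was 4.61 or 4.55, against 4.58 with all libraries. Without either eWAT library, either iWAT library or the replicate 2 BAT library, 0 of the 4 were called against the mean of iWAT and BAT (edgeR, adjusted p 0.0575 to 0.179), while without the replicate 1 BAT library all 4 remained (0.0358 to 0.0403). Against BAT, Wt1 and Gata6 lost their calls without either eWAT library or the replicate 2 BAT library (edgeR, adjusted p 0.0674 to 0.0918), and Tcf21 kept its call only without the replicate 2 eWAT library (0.0486; otherwise 0.0618 to 0.138). The replicate 1 BAT library carried most BAT reads of Wt1, Tcf21 and Osr1. Without it, the differences between eWAT and BAT were 6.12 for Wt1 and 3.81 for Osr1. The BAT library left held 1 read of Wt1. It held 0 reads of Tcf21, whose fitted 9.89 therefore depended on the prior count and is not a measured size.

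**Figure D2:**
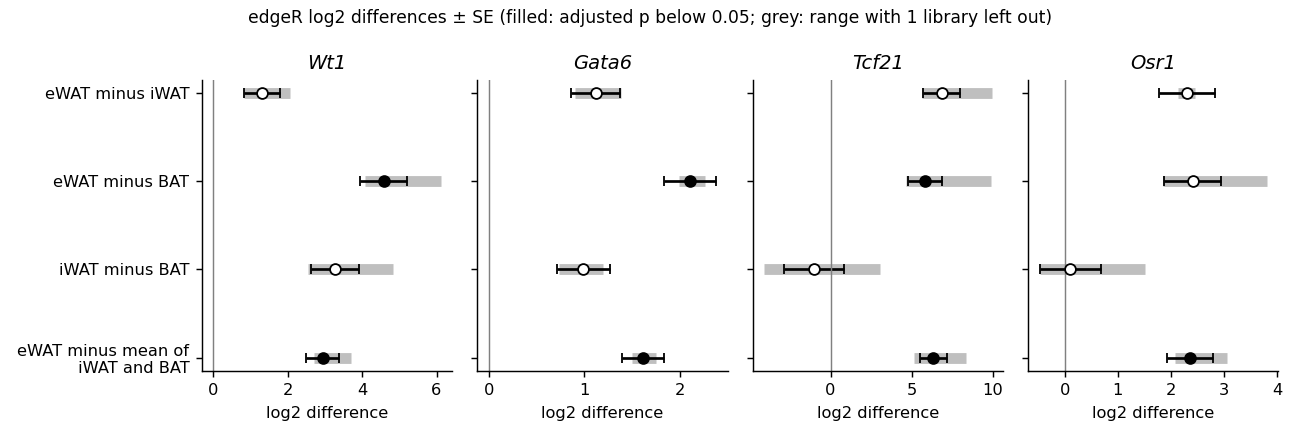
Log2 differences between depots with their SE (bars) for the 4 regulators that passed the filter, from the edgeR fit of all 6 libraries; filled circles have an adjusted p below 0.05, and grey bands span the values with 1 library left out. Every eWAT difference lies right of 0 with its band, and the bands of Tcf21 and Osr1 for iWAT minus BAT cross 0. Band ends of Tcf21 from fits in which the library left in a depot had 0 reads depend on the prior count.

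The authors' deposited table, which used a likelihood-ratio test and gives the second depot minus the first, called all 6 members in the comparison of eWAT with iWAT, where it called 5.27% of genes higher in eWAT. In the authors' deposited table, iWAT minus eWAT was -1.37 for Wt1, -6.88 for Tcf21, -1.13 for Gata6, -5.85 for Gata4, -2.31 for Osr1 and -4.14 for Bnc1, with adjusted p-values from 1.40e-44 for Tcf21 to 0.000383 for Gata4. For BAT minus eWAT, the authors' deposited table called 5 members, all but Gata4 (-1.78, adjusted p = 0.154), against 9.05% of genes higher in eWAT. For BAT minus iWAT, the authors' deposited table called Wt1 (-3.43, adjusted p = 6.58e-11) and Gata6 (-1.04, adjusted p = 0.0156), against 5.33% of genes higher in iWAT. The sizes for the tested members were close to those computed here.

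The eWAT libraries differed from each other for the low members. Gata4 in replicate 2 was 6.72 times replicate 1 (95% counting interval 1.47 to 62.3) and Bnc1 was 4.88 times replicate 1 (1.58 to 20.1), whereas Tcf21 went the other way. Wt1 (1.04, 0.793 to 1.36), Gata6 (0.898, 0.701 to 1.15) and Osr1 (1.25, 0.915 to 1.71) were level between the replicates within counting error. Some marker genes of mesothelium and gonad, but not all, were also higher in eWAT replicate 2. The mesothelial gene Gpm6a, with 12 and 14 reads in eWAT, was level within counting error (1.42, 0.611 to 3.37). The mesothelial genes Upk3b, with 5 and 23 reads, and Upk1b, with 3 and 14 reads, were higher in eWAT replicate 2, and the simple-epithelium keratin Krt18 had 0 and 13 reads. Cyp11a1, the enzyme that starts steroid hormone synthesis in the gonad and adrenal, had 0 and 89 reads in eWAT, 0 and 0 in iWAT and 1 and 0 in BAT.

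Over the whole list of 14 mesothelial markers, summed levels were 26.6 and 70.8 CPM in eWAT, 28.6 and 25.6 CPM in iWAT, and 18.4 and 22.6 CPM in BAT. Krt19, Cldn15 and Lrrn4 gave most of each iWAT and BAT sum. Krt19 had 4 and 10 reads in eWAT, 54 and 16 in iWAT, and 35 and 14 in BAT. Cldn15 averaged 11.2 CPM in eWAT, 14.7 CPM in iWAT and 3.83 CPM in BAT. Msln, which encodes mesothelin, had 3 and 3 reads in eWAT, 0 and 0 in iWAT, and 0 and 1 in BAT. Of the 5 mesothelial markers tested, edgeR called only Rspo1, a Wnt agonist gene, where 3.75% of genes were called higher in eWAT than in BAT. Rspo1 had 24 and 40 reads in eWAT and 0 in the other 4 libraries, at least 22.2-fold higher than in iWAT and at least 20.1-fold higher than in BAT. Its call against BAT (edgeR, adjusted p = 0.0417) was lost when any 1 library was left out (0.064 to 0.132), in a fit of eWAT and BAT alone (0.0606) and with DESeq2 (adjusted p = 0.401). Its call against the mean of iWAT and BAT (edgeR, adjusted p = 0.0384) was kept only without the replicate 1 BAT library (0.0456; otherwise 0.0665 to 0.13) and was lost with DESeq2 (adjusted p = 0.389). The 15 epididymis and gonad markers summed to 1.86 and 29.3 CPM in eWAT, 1.44 and 3.02 CPM in iWAT, and 3.17 and 1.53 CPM in BAT, and Cyp11a1 gave 89 of the 103 reads of these markers in eWAT replicate 2. Tcf21 was instead higher in eWAT replicate 1, where the retinoic acid enzyme gene Aldh1a2 (1438 and 96 reads in eWAT) and the Wnt ligand gene Wnt4 (80 and 31) were also higher. This excess in replicate 1 was not confined to eWAT. Aldh1a2 had 75 and 15 reads in iWAT and 131 and 7 in BAT, and Wnt4 had 5 and 2 in iWAT and 10 and 0 in BAT. The part of mesothelial and gonad cells in the levels of the members was not tested.

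**Figure D3:**
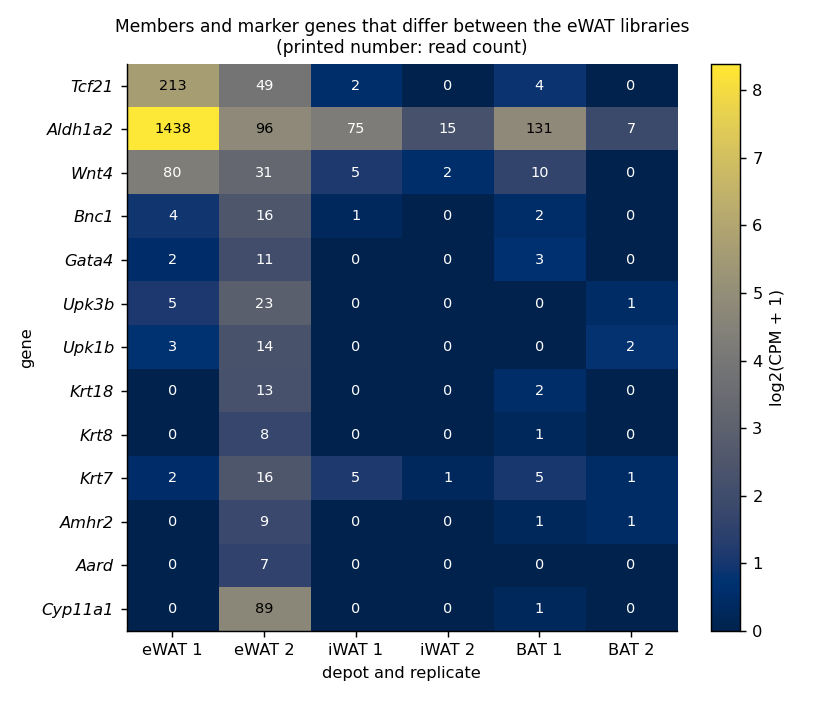
Read counts (printed numbers) and log2(CPM + 1) (colour) in the 6 libraries for 3 regulators and for marker or target genes that differed between the eWAT libraries, these genes being chosen after their values were seen. Tcf21, Aldh1a2 and Wnt4 have more reads in eWAT replicate 1, and Bnc1, Gata4 and the genes listed under them have more in eWAT replicate 2.

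Macrophage markers, like the members, were highest in eWAT. The 18 markers summed to 5219.7 and 2326 CPM in eWAT, 693.7 and 207 CPM in iWAT, and 486 and 103 CPM in BAT. Lyz2 alone gave most of each of these sums (3633 and 1443 CPM in eWAT, 457 and 119 CPM in iWAT, 323 and 61.2 CPM in BAT). The 6 regulators summed to 136 and 109 CPM in eWAT, 40.7 and 24.6 CPM in iWAT, and 18.6 and 9.18 CPM in BAT. The macrophage sum was higher in replicate 1 than in replicate 2 in each depot. Tcf21 was also higher in eWAT replicate 1. Wt1, Gata6 and Osr1 were level between the eWAT replicates, and Gata4 and Bnc1 were higher in eWAT replicate 2. Of 17 markers tested, edgeR called 7 higher in eWAT than in BAT, where 3.75% of genes were. Among them was Cd68, a lysosomal protein of macrophages, by 4.07 (edgeR, adjusted p = 0.0247). The list median was 3.62 against 0.03 over all genes. In eWAT minus iWAT the median was 3.12 against -0.01 over all genes. There edgeR called 0, and all 17 had an unadjusted p below 0.05, as did 9.34% of genes. In iWAT minus BAT the median was 0.53 against 0.02 over all genes. The tested members differed there by 3.28 (Wt1), 0.99 (Gata6), 0.10 (Osr1) and -1.01 (Tcf21). The large peritoneal macrophage genes, of which Gata6 is a known regulator in mice, had 6 of 10 tested and 0 called in any contrast by edgeR. Their median was 0.97 in eWAT minus BAT, against 0.03 over all genes, and 0.26 in eWAT minus iWAT, against -0.01. In eWAT minus iWAT the tested genes of this list ran from -0.72 for Icam2 to 4.14 for F5. Of those not tested, Timd4 had 2 and 0 reads in eWAT, Alox15 had 0 and 1, and Naip1 had 1 and 2. F10, also not tested, had 1 and 26 reads in eWAT, 1 and 1 in iWAT, and 0 and 1 in BAT. Preadipocyte and fibroblast markers summed to 18270.2 and 19559 CPM in eWAT, 21178 and 21721 CPM in iWAT, and 5231 and 3588 CPM in BAT, with both eWAT sums below both iWAT sums. Col3a1, a collagen gene, gave most of each sum (12417 and 14652 CPM in eWAT, 13786 and 16452 CPM in iWAT, 3004 and 2269 CPM in BAT). These markers went both ways between eWAT and iWAT, from -3.06 for Thy1 to 1.82 for Cd55 with a median of -0.02. Of 16 tested, 5 had an unadjusted edgeR p below 0.05, as did 9.34% of genes. Against BAT, 8 of 16 such markers were called higher in eWAT, where 3.75% of genes were, and 1, Thy1, lower. The part of macrophages or fibroblasts in the members' differences was not tested.

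**Figure D4:**
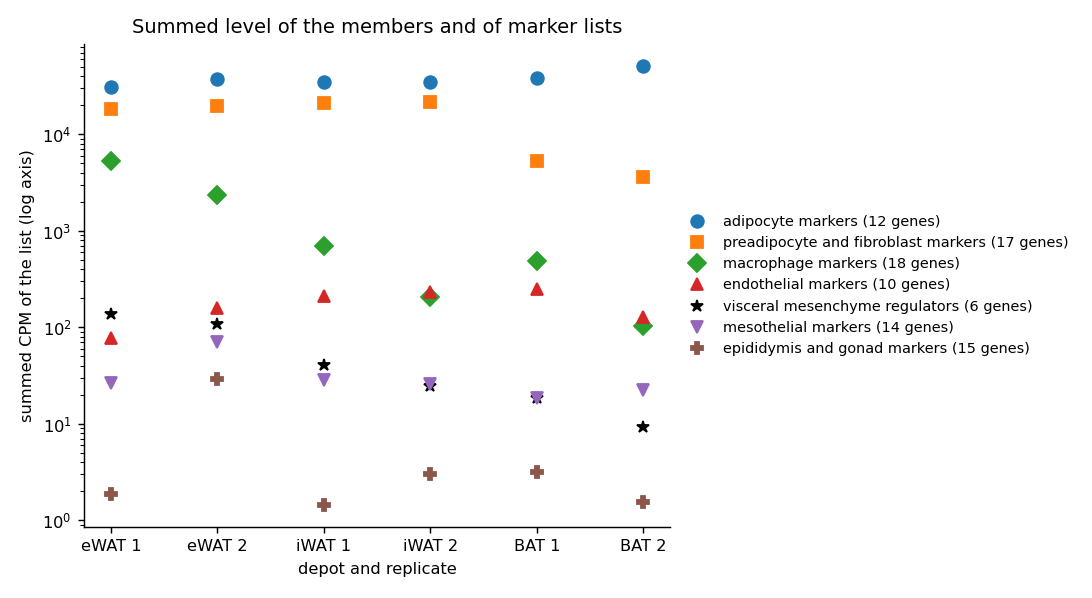
Summed CPM (log axis) in each library for the 6 regulators and for 6 marker lists. The regulators (stars) and the macrophage markers (diamonds) are highest in the eWAT libraries, the fibroblast markers (squares) are lowest in BAT, and the mesothelial and gonad markers stand highest in eWAT replicate 2, the gonad sum there being mostly Cyp11a1.

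Relatives of the members by family were called by edgeR in none of the contrasts. Of 9 paralogues, only Osr2 and Bnc2 passed the filter; Gata1, Gata2, Gata3, Gata5, Msc, Tcf23 and Tcf24 did not, Gata2 leading the GATA genes with 13 and 7 reads in eWAT, 3 and 2 in iWAT, and 5 and 1 in BAT. Osr2, the paralogue of Osr1, was highest in iWAT, with 1.86 and 1.14 CPM in eWAT, 4.81 and 9.05 CPM in iWAT, and 0.845 and 0.765 CPM in BAT. The iWAT libraries lay above the other 4, at -2.16 ± 0.53 for eWAT minus iWAT (edgeR, adjusted p = 0.212) and 3.04 ± 0.60 for iWAT minus BAT (edgeR, adjusted p = 0.0909). Bnc2, the paralogue of Bnc1, was far more abundant and level between the white depots, averaging 42.2 ± 2.57 CPM in eWAT, 44.4 ± 2.25 CPM in iWAT and 21.9 ± 5.52 CPM in BAT, with eWAT minus BAT at 0.93 (edgeR, adjusted p = 0.0633).

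Among 9 cofactors of these factors, all tested, edgeR called 1, higher in eWAT than in BAT, where 3.75% of genes were. This was Zfpm2, which encodes FOG2, a partner that binds GATA factors. It had 22.6 and 15.1 CPM in eWAT, 10.6 and 8.30 CPM in iWAT, and 5.92 and 3.06 CPM in BAT. Its libraries followed the order of Gata6 without overlap between depots, and eWAT minus BAT was 2.01 ± 0.41 (edgeR, adjusted p = 0.0445). That call was lost when any library other than the replicate 1 BAT library was left out (edgeR, adjusted p 0.083 to 0.207) and with limma voom (adjusted p = 0.0596). The median over the cofactors in eWAT minus BAT was 0.42, against 0.03 over all genes. The others, Zfpm1, the E-proteins Tcf3, Tcf4 and Tcf12 that pair with Tcf21, and the Wt1 partners Basp1, Pawr, Wtip and Wtap, were not called in any contrast by edgeR.

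Among 18 other regulators of coelomic and lateral plate mesoderm, 6 were tested. Meis1, a homeobox factor gene, had 36.6 and 40.4 CPM in eWAT, 24.5 and 24.1 CPM in iWAT, and 21.8 and 18.4 CPM in BAT, the eWAT libraries being above the other 4. It was 0.93 ± 0.20 higher in eWAT than in BAT (edgeR, adjusted p = 0.0499; 0.0701 to 0.183 with any 1 library left out, and 0.0562 with limma voom). Emx2, a homeobox factor of the urogenital system, had the iWAT pattern of Osr2, with 3.96 and 2.84 CPM in eWAT, 15.4 and 13.3 CPM in iWAT, and 3.80 and 2.68 CPM in BAT (eWAT minus iWAT -2.06 ± 0.37; edgeR, adjusted p = 0.136). Hand1 was at 0 in every library.

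Genes reported as targets of these factors gave 0 edgeR calls in any contrast, over 6 of 9 tested for Wt1 and 3 of 7 for Gata4 and Gata6, against 0% to 3.75% of all genes called higher in the first-named depot. In eWAT minus iWAT, 3 of the 6 and 3 of the 3 had an unadjusted edgeR p below 0.05, as did 9.34% of genes. The Wt1 targets went both ways in that contrast, from -1.82 for Snai1 to 4.05 for Aldh1a2. The median of the 6 tested Wt1 targets was 0.38 in eWAT minus iWAT, against -0.01 over all genes. In eWAT minus BAT it was 0.09, against 0.03. The median of the 3 Gata4 and Gata6 targets (Star, Bmp4 and Dab2) was 2.03 in eWAT minus iWAT and 1.93 in eWAT minus BAT. Wnt4 had 18.6 and 8.82 CPM in eWAT, 1.20 and 0.503 CPM in iWAT, and 2.11 and 0 CPM in BAT, and its eWAT libraries were above the other 4 (eWAT minus BAT 3.42 ± 0.90; edgeR, adjusted p = 0.0748). Dab2, an endocytic adaptor gene, had 102.5 and 44.1 CPM in eWAT, 28.4 and 14.3 CPM in iWAT, and 14.6 and 4.21 CPM in BAT (eWAT minus BAT 2.88 ± 0.67; edgeR, adjusted p = 0.0569). Bmp4, a growth factor gene, was instead low in iWAT alone, with 18.9 and 12.2 CPM in eWAT, 3.13 and 1.51 CPM in iWAT, and 11.0 and 10.7 CPM in BAT. Nphs1, Areg and Nkx2-5, targets in podocytes and heart, were at 0 in every library.

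The genes whose profile over the 6 libraries was most like that of each tested member were found by the root mean square difference of log2 CPM, centred on the mean of each gene, among 11732 genes. For Wt1 the nearest was Slc7a8, a neutral amino acid transporter gene, at 0.20, with 19.6 and 16.2 CPM in eWAT, 9.62 and 5.03 CPM in iWAT, and 1.27 and 0 CPM in BAT. Igf1, the insulin-like growth factor gene, was next at 0.38, with 730.3 and 588 CPM in eWAT, 401 and 260.2 CPM in iWAT, and 64.2 and 38.6 CPM in BAT, and Akr1cl at 0.47. For Gata6 these were Slc45a3 (0.13), the Notch pathway ligase gene Dtx4 (0.15) and the immune receptor gene Havcr2 (0.17). Zfpm2, the only gene whose rank was looked up by name, ranked 8 (0.22) with the left-out symbols counted. For Osr1 they were the cytokine gene Tnf (0.17), the sodium channel subunit gene Scn3b (0.25) and the interferon regulatory gene Irf5 (0.25), and for Tcf21 the growth factor gene Gdf6 (0.74), Nxpe5 (0.78) and the leukocyte surface gene Cd53 (0.79), a looser likeness. Havcr2, Tnf, Irf5 and Cd53 are known from macrophages and other leukocytes, and the summed macrophage markers were highest in the same eWAT libraries. These genes were singled out after the neighbours were seen, and the part of leukocytes in the likenesses was not tested.

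**Figure D5:**
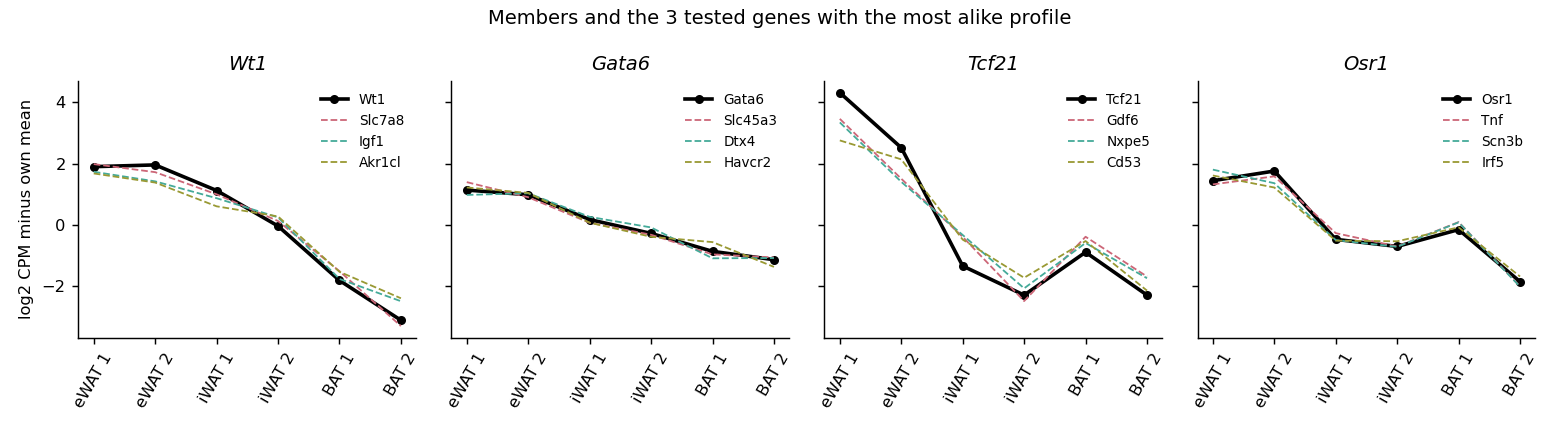
Log2 CPM minus the mean of each gene over the 6 libraries for 4 regulators (black) and the 3 genes nearest to each (dashed), with clones, predicted genes and small RNAs left out. Wt1 and Gata6 step down from eWAT through iWAT to BAT together with their neighbours, while Tcf21 and Osr1 drop between eWAT and iWAT and stay low in BAT.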

How the data were processed

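RNA from 6 cultures (2 for each of eWAT, iWAT and BAT) was depleted of ribosomal RNA and sequenced, per the labels' protocols. Reads were aligned with STAR to mm9, per the submitters' processing notes; not given in the sources used here: its version, the counting program and how multi-mapped reads were handled. The deposited table holds raw whole-number counts per gene. A further table deposited by the authors gives log2 fold changes with p-values for pairs of depots, which were only copied here, and log2 values per library, which were not used.

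CPM was computed from the deposited counts with TMM factors (0.907 to 1.05). edgeR 4.0.16 (quasi-likelihood F test, two-sided; R 4.3.3) was fitted to all 6 libraries with depot as the only term on the 11732 genes kept by filterByExpr, 8563 being left out, with Benjamini-Hochberg adjustment over all of them and a call below 0.05. SE was derived from the F statistic. DESeq2 1.42.0 and limma 3.58.1 (voom) were alternatives. The procedure was tested on simulated data. The spread between libraries of a depot was larger than counting error, at 16.0 to 19.8 times by chi-square over its degrees of freedom. Members and lists were chosen with earlier results of these data known. Named were all members, their paralogues and cofactors, and up to 4 called genes per other list and contrast. Some of the listed genes at 0 and the 3 nearest profiles were named as well. Others named were chosen after their values were seen. A result for 1 listed gene is not reported here.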

Additional observations from a re-analysis of the deposited data

How the results depend on the processing

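Under 14 alternatives, 216 of 219 log2 differences of Wt1, Tcf21, Gata6 and Osr1 had the direction reported. All 3 exceptions came from leaving out 1 library in iWAT minus BAT. That difference ran from -4.09 to 3.05 for Tcf21 and from -0.48 to 1.51 for Osr1. Both ends for Tcf21 came from fits in which the library left in a depot had 0 reads, and depend on the prior count. Calls were less stable. Over all genes, the counts called with no filter on low counts were 557 (eWAT minus iWAT), 1937 (eWAT minus BAT), 780 (iWAT minus BAT) and 1284 (eWAT minus the mean), against 0, 758, 122 and 336 with the filter, and those of DESeq2 were 301, 1370, 510 and 821. limma voom called 1 in eWAT minus iWAT and 69 in iWAT minus BAT, and fits of the 2 compared depots called 2 in eWAT minus iWAT and 156 in eWAT minus BAT. Leaving out 1 library gave 0 to 3, 17 to 829, 0 to 94 and 0 to 413 calls in that order of comparisons, and 0, 0 to 3, 0 and 0 to 4 called members. The members called, 0 in eWAT minus iWAT and 0 in iWAT minus BAT, became 3 and 1 with no filter and 2 and 1 with DESeq2. With no filter Bnc1 was called against the mean of iWAT and BAT (3.67; edgeR, adjusted p = 0.0253) and Gata4 was not (3.93; edgeR, adjusted p = 0.0884).

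The replicate numbers are not stated to pair the libraries. Same-numbered libraries deviated together (correlation across genes 0.556 for eWAT and iWAT, 0.412 for eWAT and BAT, 0.448 for iWAT and BAT), and a fit with the replicate block called 563, 2780, 1225 and 1703 genes, with 3 members in eWAT minus iWAT (Tcf21, Gata6 and Osr1, the last at edgeR adjusted p = 0.0294), all 4 in eWAT minus BAT (Osr1 at edgeR adjusted p = 0.00996), 2 in iWAT minus BAT (Wt1 and Gata6) and all 4 in eWAT minus the mean. The cause of these changes was not tested. Gata4 and Bnc1 had 0 to 3 counts per library outside eWAT, so differences between those libraries were not detectable at this depth.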
